A study of Mus musculus with 463 samples.

Results

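The 4 fibroblast growth factor (FGF) receptor genes Fgfr1, Fgfr2, Fgfr3 and Fgfr4 and 6 genes that report on the pathway, Etv4, Etv5, Spry1, Spry2, Spry4 and Dusp6, were followed through mouse embryonic pancreas and liver bud. They are 10 of the 40824 genes in the count tables and were chosen by symbol, with earlier results of these data known. All 10 passed the filter on low counts in both data sets. The study compared the ventral with the dorsal pancreas from early progenitors to insulin-producing cells. Bulk RNA-seq (16 libraries, 2 in each of 8 groups) covered Pdx1-GFP+ cells of the E10.5 buds, Ngn3-GFP-high and Ngn3-GFP-low cells of the E14.5 pancreas and Ins1-RFP+ cells of the E17.5 pancreas, each from the dorsal and the ventral side. Smart-seq2, a full-length method for single cells, covered 447 cells of 12 sorted groups. These were Pdx1-GFP+ cells of both sides at E9.5 and E10.5, Pdx1-GFP-high and Pdx1-GFP-low cells of both sides at E10.5, ventral Pdx1-GFP-low cells split into Liv2- and Liv2+, Liv2+ cells of the E10.5 liver bud, and 4 E15.5 liver cells carrying Pdx1-Cre and the ROSA26-tdTomato reporter. The labels name no treatment and no strain. The groups are sort gates on transgenic reporters of Pdx1, Ngn3 (Neurog3) and Ins1 or on the surface antigen Liv2, so each can hold more than 1 cell type.

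FGF ligands bind receptor tyrosine kinases at the cell surface and, through RAS and the kinase ERK, switch on a small group of genes. Etv4 and Etv5 encode transcription factors of the PEA3 subfamily of ETS proteins, Spry1, Spry2 and Spry4 encode Sprouty proteins that dampen the signal, and Dusp6 encodes a phosphatase that removes phosphate from ERK. Other receptor tyrosine kinases can induce the same genes. In the pancreas, FGF10 from the mesenchyme acts through an epithelial splice form of Fgfr2 and is known for keeping progenitors dividing, and FGF signals from the heart field are known for inducing liver from ventral endoderm. Fgfr4 is known as the FGF19/FGF15 receptor of hepatocytes. The counts are per gene and do not separate the splice forms of the receptors.

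Promoters are shown for the 4 targets with a listed window among the 5 lower in ventral bulk libraries at E10.5. The ETS core can be looked for in each of them. Each is the RefSeq window of 300 bases (build GRCm38.p6) from 250 before to 50 after a transcript start, on the strand of the gene, with GGAA on either strand in capitals. The longer form CGGAAG, which contains that core, is in capitals in full where it occurs.
Dusp6, chr10:99262981-99263280, plus strand: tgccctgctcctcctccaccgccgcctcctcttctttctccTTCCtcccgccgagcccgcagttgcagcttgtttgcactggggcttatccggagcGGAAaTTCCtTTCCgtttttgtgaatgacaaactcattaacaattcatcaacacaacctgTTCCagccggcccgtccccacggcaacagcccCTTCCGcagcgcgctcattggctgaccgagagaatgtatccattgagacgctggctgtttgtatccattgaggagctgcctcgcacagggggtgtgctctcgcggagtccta
Etv5, the second of its windows, chr16:22438319-22438618, minus strand: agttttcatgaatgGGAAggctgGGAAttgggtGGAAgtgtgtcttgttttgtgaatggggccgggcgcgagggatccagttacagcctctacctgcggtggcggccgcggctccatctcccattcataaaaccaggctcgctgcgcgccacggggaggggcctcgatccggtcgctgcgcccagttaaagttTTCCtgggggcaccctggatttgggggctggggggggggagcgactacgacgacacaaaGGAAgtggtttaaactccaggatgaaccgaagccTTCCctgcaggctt
Spry1, chr3:37639697-37639996, plus strand: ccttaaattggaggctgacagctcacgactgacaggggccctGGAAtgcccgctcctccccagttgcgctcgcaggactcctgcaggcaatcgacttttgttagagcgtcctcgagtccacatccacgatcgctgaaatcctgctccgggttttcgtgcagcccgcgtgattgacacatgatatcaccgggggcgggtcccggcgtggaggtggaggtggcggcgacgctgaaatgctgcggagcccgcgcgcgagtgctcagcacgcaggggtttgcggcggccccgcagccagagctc
Spry2, chr14:105896770-105897069, minus strand: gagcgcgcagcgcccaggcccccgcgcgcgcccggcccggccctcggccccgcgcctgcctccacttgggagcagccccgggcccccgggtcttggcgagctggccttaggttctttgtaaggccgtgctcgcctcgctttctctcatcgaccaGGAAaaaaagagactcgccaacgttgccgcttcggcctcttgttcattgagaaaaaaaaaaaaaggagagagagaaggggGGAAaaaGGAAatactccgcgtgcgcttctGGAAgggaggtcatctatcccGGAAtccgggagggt
The windows of Dusp6, Etv5, Spry2 and Spry1 held 6, 6, 5 and 1 matches to GGAA, against a mean of 3.52 over the 32544 windows of the table, and 95.96% of all windows held at least 1. CGGAAG occurred once, in the window of Dusp6, and in 16.96% of all windows. The AP-1 motif TGANTCA, found in 7.79% of all windows on either strand, occurred in none of the 9 windows listed for the members. The other window of Etv5 held no GGAA. These are matches to letters and say nothing of binding. Among the receptors, the window of Fgfr2 held 4 matches, that of Fgfr4 held 3, and the pair listed for Fgfr3 held 1 and 5. The counts of targets and receptors overlapped.

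Levels below are CPM (read counts scaled to library size, with TMM factors), and levels of different genes are compared only as RPKM (CPM per kilobase of the deposited gene length). Tests are edgeR's quasi-likelihood F test, adjusted by Benjamini and Hochberg's method across every gene tested (17690 in bulk, 17433 in sets), called at an adjusted p under 0.05. Values are mean ± SD, fold changes are log2, and SE is the standard error of the log2 fold change. Statements that libraries or sets did not overlap are descriptive, and the share of all genes without overlap was not counted. Bulk libraries held 8779418 to 24551520 reads on genes. Cells held a median of 1064163 reads (201191 to 1738015) and were summed by numbered set, giving 37 sets of 3 or more cells in 11 groups. The labels do not say what a set is or whether libraries came from separate litters, so p-values measure the spread between these libraries and sets, which may be technical.

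At E10.5 the bulk libraries differed in 2 receptors and 5 targets. Fgfr2 and Fgfr3 were higher in ventral Pdx1-GFP+ libraries, and Etv4, Etv5, Spry1, Spry2 and Dusp6 were lower. That is 7 of 10 members called, where 25.3% of all genes were called (10.6% higher and 14.7% lower).
Fgfr2 stood at 91.8 and 85.8 CPM in the dorsal and at 195 and 229 CPM in the ventral libraries, a difference of 1.26 (SE 0.09, adjusted p = 1.43e-07). Fgfr3 stood at 14.46 and 15.1 CPM in the dorsal and at 29.0 and 37.7 CPM in the ventral libraries (1.18, SE 0.12, adjusted p = 3.2e-06). For both genes every ventral library was above every dorsal one. Fgfr1 (98.7 ± 1.37 dorsal, 118 ± 12.5 CPM ventral, n = 2 each) and Fgfr4 (111 ± 3.12 and 123 ± 14.8 CPM) were not called, with adjusted p of 0.317 and 0.328 in edgeR's test.

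Spry2 had the largest difference among the targets. It stood at 71.5 and 76.7 CPM in the dorsal and at 31.2 and 28.9 CPM in the ventral libraries (-1.30, SE 0.12, adjusted p = 1.14e-06). Etv4 stood at 169 and 189 CPM dorsal against 91.1 and 104 CPM ventral (-0.88, SE 0.12, adjusted p = 5.85e-05). Etv5 stood at 243 and 256 CPM against 171 and 162 CPM (-0.59, adjusted p = 0.000263). In none of the 3 did the sides overlap. Dusp6 (113 ± 6.05 dorsal, 66.5 ± 7.93 CPM ventral) differed by -0.76 with an adjusted p = 0.000602. Spry1 (35.0 ± 1.26 and 21.2 ± 2.05 CPM) differed by -0.72 with an adjusted p = 0.00746. The Spry1 call was lost without dorsal library 2 (adjusted p = 0.0601) or without ventral library 1 (adjusted p = 0.0673). Spry4 was low on both sides (8.68 and 8.03 against 3.80 and 3.91 CPM) and was not called at -1.11 (SE 0.55, adjusted p = 0.169), although its libraries did not overlap.

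The 2 sides of the E10.5 gate also differed in markers of other cells. The summed level of 11 endocrine markers was 3651 to 3806 CPM in dorsal and 63.1 to 103 CPM in ventral libraries, and that of 10 hepatoblast markers was 879 to 898 against 2148 to 2525 CPM. The 9 mesenchyme markers summed to 90.7 to 110 CPM in dorsal and 601 to 983 CPM in ventral libraries, with Lum at 0 in the dorsal ones, and the 5 cardiac muscle markers to 4.42 to 20.8 against 1047 to 1922 CPM. The 9 pancreatic progenitor markers summed to 1141 to 1157 CPM in dorsal and 663 to 703 CPM in ventral libraries, and 6 of them were lower and 2 higher in ventral ones. In bulk RNA, fewer cells of a type and less RNA per cell cannot be told apart, and the part of these cells in the FGF results was not tested.

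**Figure D1:**
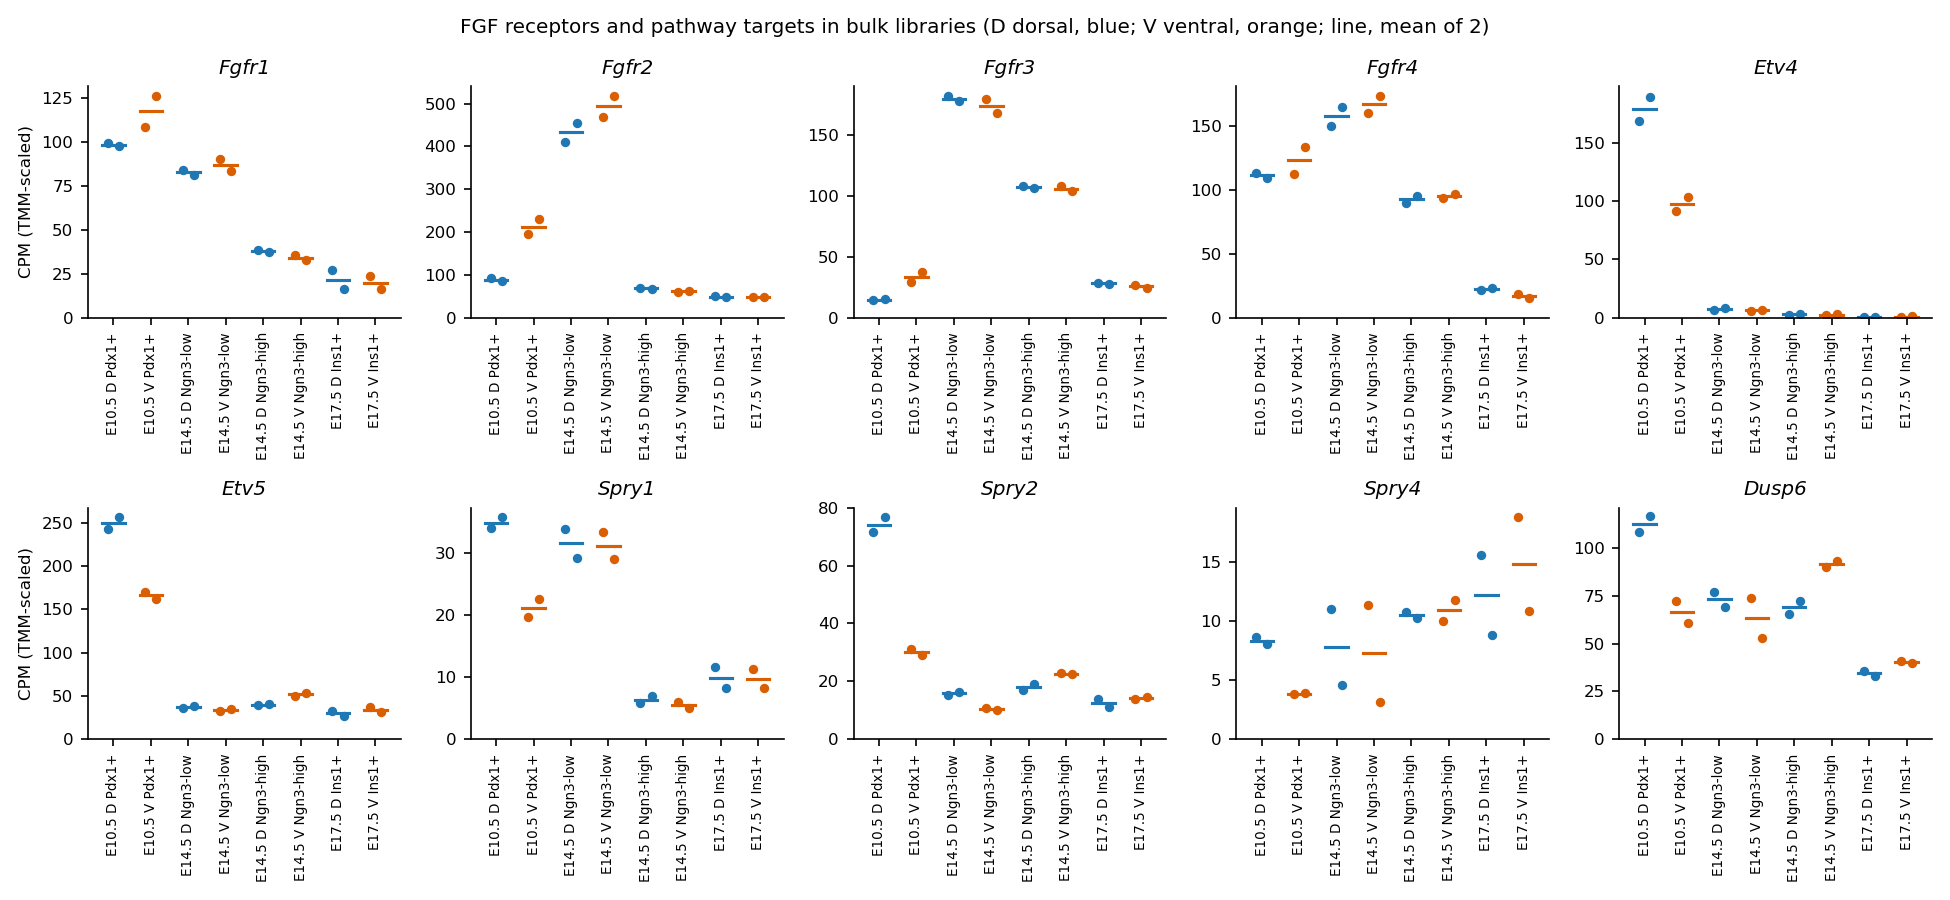
CPM (TMM-scaled, linear axes from 0) of the 10 genes in the 16 bulk libraries; points are libraries, lines are means of 2, blue is dorsal (D) and orange ventral (V). Etv4 means are 179 (D) and 97.3 CPM (V) at E10.5 and below 1 CPM at E17.5, while Fgfr2 and Fgfr3 peak in the E14.5 Ngn3-low cells.

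From E14.5 no member was called between the sides. In Ngn3-GFP-high cells, Ngn3-GFP-low cells and Ins1-RFP+ cells, edgeR and DESeq2 called 0 of the 10 members between ventral and dorsal, against edgeR backgrounds of 0.486% (0.0565% higher, 0.43% lower), 0.017% (0.00565% higher, 0.0113% lower) and 0.0283% (0.00565% higher, 0.0226% lower) of all genes. At an unadjusted p under 0.05 the counts were 3, 2 and 1 of 10. The smallest of these p-values was for Spry2 in Ngn3-low cells, at 15.3 and 16.4 CPM dorsal and 10.9 and 9.96 CPM ventral (-0.60, SE 0.13, adjusted p = 0.306). The ventral Spry2 libraries were again below the dorsal ones there, but in Ngn3-high cells they were above them, at 22.8 and 22.5 against 16.8 and 18.9 CPM (0.35, adjusted p = 0.505). Etv5 (51.7 ± 2.76 ventral, 40.0 ± 0.569 CPM dorsal) and Dusp6 (91.5 ± 2.26 and 69.0 ± 4.85 CPM) were likewise higher in every ventral Ngn3-high library without being called, with adjusted p of 0.187 and 0.377 in edgeR. Fgfr1 (32.7 to 35.7 ventral, 37.2 to 38.6 CPM dorsal) and Fgfr2 (61.1 to 62.3 and 67.0 to 69.4 CPM) separated the other way there, also without a call.
The change of the side difference from E10.5 to E14.5 Ngn3-low cells was tested directly, and 4 of 10 members were called (12.3% of all genes, 7.6% higher and 4.71% lower). The ventral excess shrank for Fgfr2 (-1.07, SE 0.13, adjusted p = 4.86e-05) and Fgfr3 (-1.23, SE 0.15, adjusted p = 5.92e-05). The dorsal excess shrank for Spry2 (0.70, SE 0.17, adjusted p = 0.0141) and Etv4 (0.65, SE 0.19, adjusted p = 0.0412). Etv4 lost this call in DESeq2 (adjusted p = 0.102), with RLE scaling (0.055) and with several single libraries left out, the largest adjusted p being 0.199 without dorsal Ngn3-low library 1. Spry2 lost it without dorsal Pdx1+ library 2 (0.0737) or dorsal Ngn3-low library 1 (0.0604). The contrast also compares different sorts, Pdx1-GFP+ with Ngn3-GFP-low, and stage and sort cannot be told apart in it. In the same contrast 5 of the 9 pancreatic progenitor markers were called higher and 0 lower, and their part in the result was not tested.

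Between E10.5 Pdx1-GFP+ and E14.5 Ngn3-low cells, averaged over the sides, 3 receptors rose, and 4 targets and Fgfr1 fell. Stage and sort change together in this contrast and cannot be told apart. The 6 endothelial markers summed to 4.62 to 43.3 CPM in E10.5 and 199 to 656 CPM in Ngn3-low libraries, and their part was not tested. Fgfr3 rose from 14.46 to 37.7 CPM in the E10.5 libraries to between 169 and 182 CPM (2.99, SE 0.08, adjusted p = 3.59e-13). Fgfr2 reached 411 to 518 CPM (1.75, SE 0.06, adjusted p = 1.48e-11), and Fgfr4 rose by 0.47 (adjusted p = 3.07e-05). Etv4 fell to between 5.83 and 8.20 CPM (-4.29, SE 0.10, adjusted p = 1.55e-13). Etv5 fell by 2.52 (adjusted p = 8.68e-13) and Spry2 by 1.87 (adjusted p = 1.58e-10). Dusp6 fell far less, by 0.34 (adjusted p = 0.00414), and its libraries overlapped. Fgfr1 fell by 0.35 (adjusted p = 0.0179), a call lost when any of 4 single libraries was left out (largest adjusted p = 0.0756, without ventral Pdx1+ library 2). Spry1 (28.1 at E10.5, 31.4 CPM in Ngn3-low) and Spry4 were not called, with adjusted p of 0.147 and 0.345. With 8 of 10 members called, the background was 68% of all genes (33.1% higher, 34.9% lower), so the count is near the background.

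All 4 receptors were lower in Ngn3-high than in Ngn3-low cells at E14.5. Ngn3 marks precursors of endocrine cells. Fgfr2 fell from 411 to 518 CPM in the 4 Ngn3-low libraries to 61.1 to 69.4 CPM in the 4 Ngn3-high libraries (-2.83, SE 0.07, adjusted p = 4.32e-14). Fgfr1 fell by 1.24 (adjusted p = 3.49e-07), Fgfr4 by 0.79 (adjusted p = 9.01e-08) and Fgfr3 by 0.73 (adjusted p = 1.27e-07). In each of the 4 receptors the Ngn3-high libraries lay below all Ngn3-low libraries.
The targets split. Spry1 fell from 29.0 to 33.9 CPM to 5.00 to 6.97 CPM (-2.42, SE 0.14, adjusted p = 5.41e-10), and Etv4 fell by 1.30 from a level already under 10 CPM (adjusted p = 2.54e-07). Spry2 rose by 0.64 (13.2 to 20.2 CPM, adjusted p = 9.84e-06) and Etv5 by 0.35 (35.7 to 45.9 CPM, adjusted p = 0.000346). Dusp6 rose by 0.22 (adjusted p = 0.0433) with overlapping libraries, and this call was lost when any of 4 single libraries was left out (largest adjusted p = 0.228, without ventral Ngn3-low library 2). The rises of Spry2, Etv5 and Dusp6 were small, and none was called in edgeR's test against a 1.5-fold change (Spry2 adjusted p = 0.216). In this comparison 70.8% of all genes were called (33.8% higher, 37% lower) against 9 of the 10 members (3 higher, 6 lower). No member's Ngn3 difference was called as different between the sides (0 of 10 in edgeR, 4 at an unadjusted p under 0.05, 1 in DESeq2, where 0.0113% of all genes were called in edgeR). The one was Spry2, at 0.95 in edgeR (SE 0.17, adjusted p = 0.136).

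Spry4 did not separate the sorts, and its level differed between the first and second libraries of the Ngn3-low and Ins1-RFP+ groups. In Ngn3-low cells the first libraries held 11.0 (dorsal) and 11.4 CPM (ventral) and the second ones 4.57 and 3.14 CPM. The endothelial gene Cdh5 stood at 197 and 226 CPM in the same first libraries and at 101 and 66.4 CPM in the second ones. The 6 endothelial markers summed to 199 to 656 CPM over these 4 libraries and to 5.24 to 10.1 CPM in Ngn3-high cells. Spry4 stood at 10.3 to 10.8 CPM (dorsal) and 10.0 to 11.8 CPM (ventral) in those Ngn3-high libraries. At E17.5 Spry4 stood at 15.6 and 18.9 CPM in the first and 8.87 and 10.8 CPM in the second libraries, and Fgfr1 at 27.0 and 23.6 against 16.2 and 16.1 CPM. The collagen gene Col1a1 was at 584 and 898 against 231 and 353 CPM there. The part of endothelial and mesenchymal RNA in these Spry4 and Fgfr1 levels was not tested.

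In E17.5 Ins1-RFP+ cells, 9 of 10 members differed from E14.5 Ngn3-high cells, where 62% of all genes did (32.1% higher, 29.9% lower). Stage and sort change together here too and cannot be told apart. Fgfr4 fell from 89.7 to 96.6 CPM to 15.2 to 22.9 CPM (-2.26, SE 0.08, adjusted p = 1.5e-11), and Fgfr3 from 104 to 108 CPM to 24.5 to 28.7 CPM (-1.98, SE 0.07, adjusted p = 2.51e-11). Fgfr1 fell by 0.78 (adjusted p = 0.000139) and Fgfr2 by 0.41 (65.0 to 48.7 CPM, adjusted p = 9.11e-05). Among the targets, Etv4 fell by 1.52 to about 1 CPM (0.962 CPM over the 4 libraries, adjusted p = 8.36e-06), Dusp6 fell by 1.09 (adjusted p = 2.11e-07), Spry2 by 0.57 (adjusted p = 6.01e-05) and Etv5 by 0.51 (adjusted p = 2.54e-05). Spry1 rose, from 5.00 to 6.97 CPM to 8.22 to 11.6 CPM (0.75, SE 0.14, adjusted p = 0.000378). The 9 mesenchyme markers summed to 825 to 2832 CPM in these libraries against 72.8 to 155 CPM in Ngn3-high cells, which was not tested as a source of the Spry1 level. Across the 3 bulk stages the order of Etv4 was E10.5 dorsal, E10.5 ventral, Ngn3-low, Ngn3-high and Ins1-RFP+, and only the sides within a later sort overlapped.

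Expressed per length, the receptor that contributed most differed between groups. In dorsal E10.5 bulk libraries Fgfr4 made up 43.7% ± 0.0388 of the summed receptor RPKM, Fgfr2 26.2% ± 0.554, Fgfr1 25.6% ± 0.339 and Fgfr3 4.55% ± 0.254 (n = 2). In ventral E10.5 libraries Fgfr2 led with 41.3% ± 0.228 and Fgfr4 followed with 31.9% ± 0.0463. Ngn3-low cells were led by Fgfr2 on both sides (47.9% ± 1.31 dorsal, 50.6% ± 1.75 ventral), at 97.7 ± 7.06 and 111 ± 7.67 RPKM. Ngn3-high cells were led by Fgfr4 (36.6% ± 1.40 and 38.5% ± 0.965) with Fgfr3 close behind (33.3% ± 0.491 and 33.6% ± 0.725). Without the length correction Fgfr3 led there, with 35.2% and 35.7% of receptor counts against 30.2% and 32.0% for Fgfr4. Ins1-RFP+ cells were led by Fgfr2 again (38.5% ± 1.43 and 42.0% ± 2.90), but at 11.1 ± 0.236 and 10.9 ± 0.356 RPKM. Among the targets in RPKM, Etv4 (74.8 ± 6.12) and Etv5 (62.8 ± 2.34) stood highest in dorsal E10.5 bulk libraries. In the E14.5 and E17.5 groups Dusp6 was the highest target, from 12.3 ± 0.559 RPKM in dorsal Ins1-RFP+ cells to 32.7 ± 0.808 RPKM in ventral Ngn3-high cells.

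**Figure D2:**
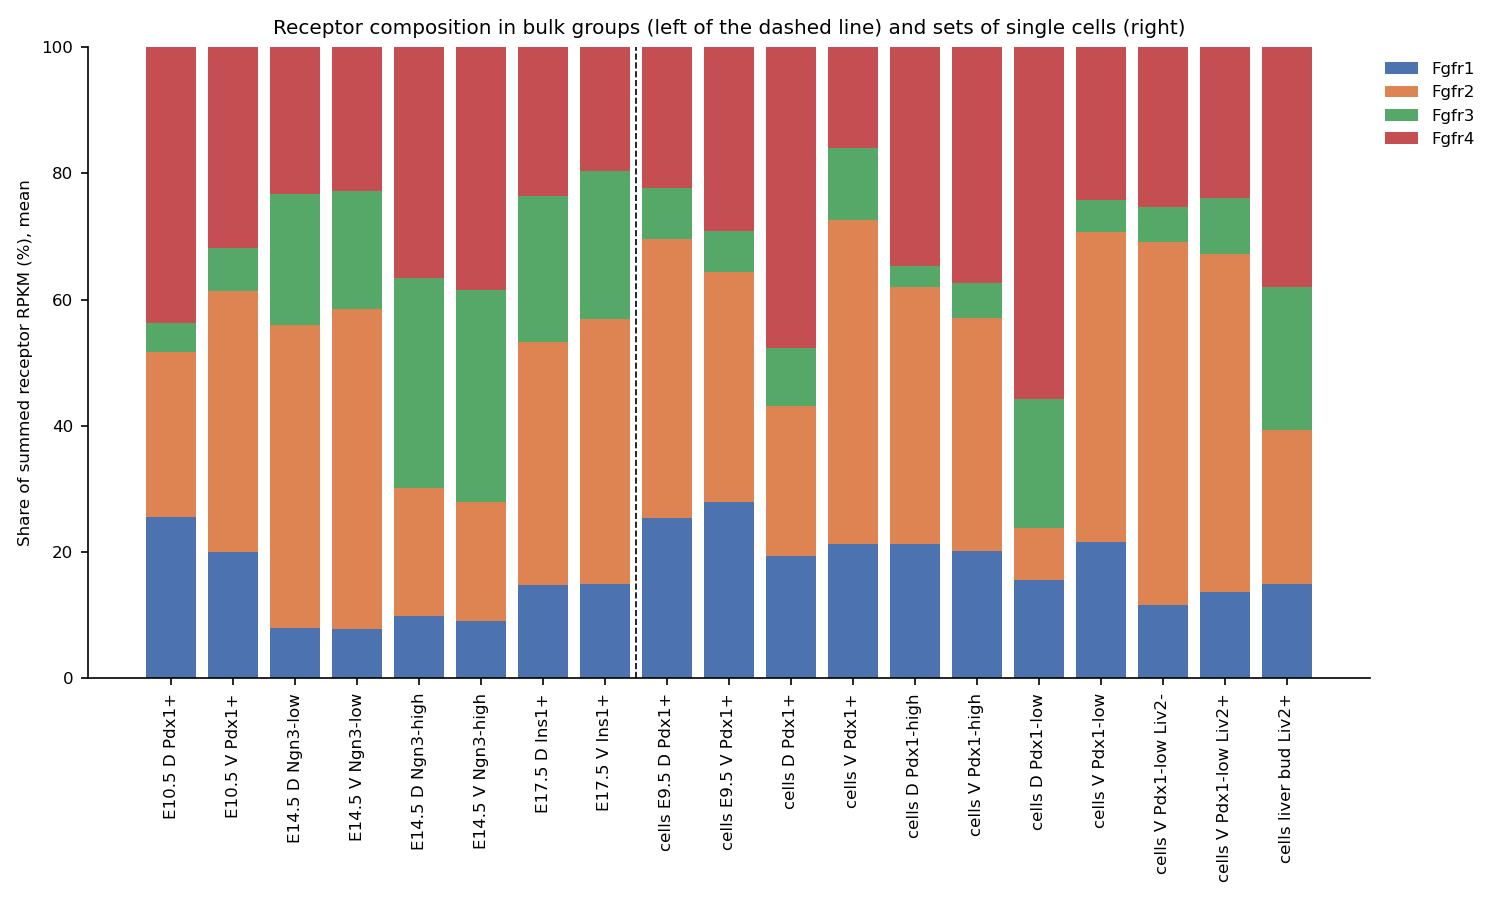
Share of each receptor in the summed RPKM of the 4 receptors (mean per group, 0 to 100%), with bulk groups left of the dashed line and sets of single cells right of it (E10.5 unless given). Fgfr4 has its largest share in dorsal Pdx1-low cells (55.8%) and Fgfr2 in ventral Pdx1-low Liv2- cells (57.4%).

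The single cells divide the E10.5 gate. Between ventral and dorsal Pdx1-GFP-high cells (5 sets each), edgeR called 0 of 10 members, 0 at an unadjusted p under 0.05 and 0 in DESeq2, where 0.00574% of all genes were called in edgeR. Spry2 ranged over 71.1, 220 and 319 CPM (lowest, median, highest of the ventral sets) and 163, 214 and 340 CPM (dorsal sets), a difference of -0.08 with a 95% interval of -0.87 to 0.71. Etv4 differed by -0.04 (-1.33 to 1.26), Etv5 by 0.07 (-0.89 to 1.02) and Fgfr2 by -0.09 (-1.45 to 1.28). The sets overlapped for each of the 10 genes, and these intervals hold the bulk differences of Etv4, Etv5 and Fgfr2 but not that of Spry2. The 11 endocrine markers summed to 39.6 to 297 CPM in the dorsal and 16.9 to 183 CPM in the ventral Pdx1-high sets.
Pdx1-GFP-low cells differed between the sides in 5 of 10 members, where 24.9% of all genes were called (13.9% higher, 11% lower). All 5 were higher in ventral cells. Fgfr2 was at 0 CPM in 2 of the 6 dorsal sets and at most 13.8 CPM, with a median of 2.72 CPM, against 119, 163 and 245 CPM (lowest, median, highest) in the 5 ventral sets (5.11, SE 0.74, adjusted p = 7.39e-06). Etv4 was at 0 to 5.74 CPM in dorsal and 37.8 to 90.5 CPM in ventral sets (5.02, SE 0.72, adjusted p = 7.08e-06). Fgfr1 was at 0 to 21.7 CPM against 48.1 to 113 CPM (3.17, SE 0.64, adjusted p = 0.000433). For Fgfr2, Etv4 and Fgfr1 the sides did not overlap. Etv5 (89.4 ± 46.0 dorsal, 224 ± 78.5 CPM ventral) was called at 1.32 with an adjusted p of 0.0291, and Fgfr4 (29.3 ± 14.6 and 65.6 ± 21.97 CPM) at 1.16 with an adjusted p of 0.0405 in edgeR. Both calls were lost under several alternatives, Fgfr4 with RLE scaling (adjusted p = 0.0645) and without any of 7 single sets (largest 0.11, without ventral set 3), Etv5 without any of 3 single sets (largest 0.0794, without ventral set 5).
The dorsal Pdx1-low sets are those of endocrine cells by their markers. Their 11 endocrine markers summed to 26349 to 54642 CPM, against 10.3 to 153 CPM in ventral Pdx1-low sets, and the 9 pancreatic progenitor markers to 138 to 386 against 325 to 616 CPM. The 10 hepatoblast markers summed to 1861 to 9299 CPM in ventral and 2893 to 5149 CPM in dorsal Pdx1-low sets, so they did not separate the sides, while the 9 mesenchyme markers reached 2042 CPM in a ventral set. Side and cell type cannot be told apart in this comparison.

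The dorsal gate contrast, Pdx1-high minus Pdx1-low, was called for 8 of 10 members, all higher in Pdx1-high cells, where 23.9% of all genes were called (12.9% higher). Etv4 rose by 6.38 (170 ± 63.2 against 1.92 ± 2.23 CPM, SE 0.76, adjusted p = 7.36e-07) and Fgfr2 by 4.34 (106 ± 41.9 against 4.87 ± 5.92 CPM, SE 0.72, adjusted p = 5.61e-05). Spry2 rose by 3.00 (163 to 340 against 22.6 to 33.8 CPM, SE 0.39, adjusted p = 2.4e-06). Fgfr1 rose by 2.79 (adjusted p = 0.0017) and Etv5 by 1.84 (adjusted p = 0.00353).
Fgfr4 (1.14, adjusted p = 0.0448), Spry1 (4.04, adjusted p = 0.0349) and Dusp6 (1.95, adjusted p = 0.0256) were called as well, but these 3 calls depended on single sets. Fgfr4 lost it without any of 7 sets (largest adjusted p = 0.101, without dorsal Pdx1-high set 6). Spry1 lost it without any of 6 sets (largest 0.0618, without Pdx1-low set 5) and Dusp6 without any of 3 (largest 0.0575, without Pdx1-high set 5). Without cells that carried markers of mesenchyme, endothelium or immune cells, these 3 were not called (adjusted p = 0.0558, 0.0635 and 0.0955). With sets of 5 or more cells, Fgfr4 (0.66) and Dusp6 (1.19) were not called in edgeR, each with an adjusted p of 0.239. Fgfr3 (-0.64, adjusted p = 0.571) and Spry4 (-0.77, adjusted p = 0.769) were not called in edgeR.
In the ventral gate contrast only Spry2 was called, of 10 members (0.952% of all genes, 0.585% higher and 0.367% lower). It stood at 71.1 to 319 CPM in Pdx1-high and 20.3 to 72.3 CPM in Pdx1-low sets, overlapping by 1 set (2.13, SE 0.40, adjusted p = 0.00362). Etv4 was above all Pdx1-low sets in every ventral Pdx1-high set (97.5 to 250 against 37.8 to 90.5 CPM) without being called (1.33, SE 0.64, adjusted p = 0.368). The 2 gate contrasts differed for 3 of 10 members, where 11.1% of all genes did (4.93% higher, 6.19% lower), namely Fgfr2 (-5.19, SE 0.97, adjusted p = 0.00087), Etv4 (-5.05, SE 0.95, adjusted p = 0.00087) and Fgfr1 (-3.23, SE 0.89, adjusted p = 0.0169). For Spry2 the difference of the contrasts was not called (-0.87, SE 0.53, adjusted p = 0.318). The Fgfr1 call was lost with sets of 5 or more cells (adjusted p = 0.0529).

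**Figure D3:**
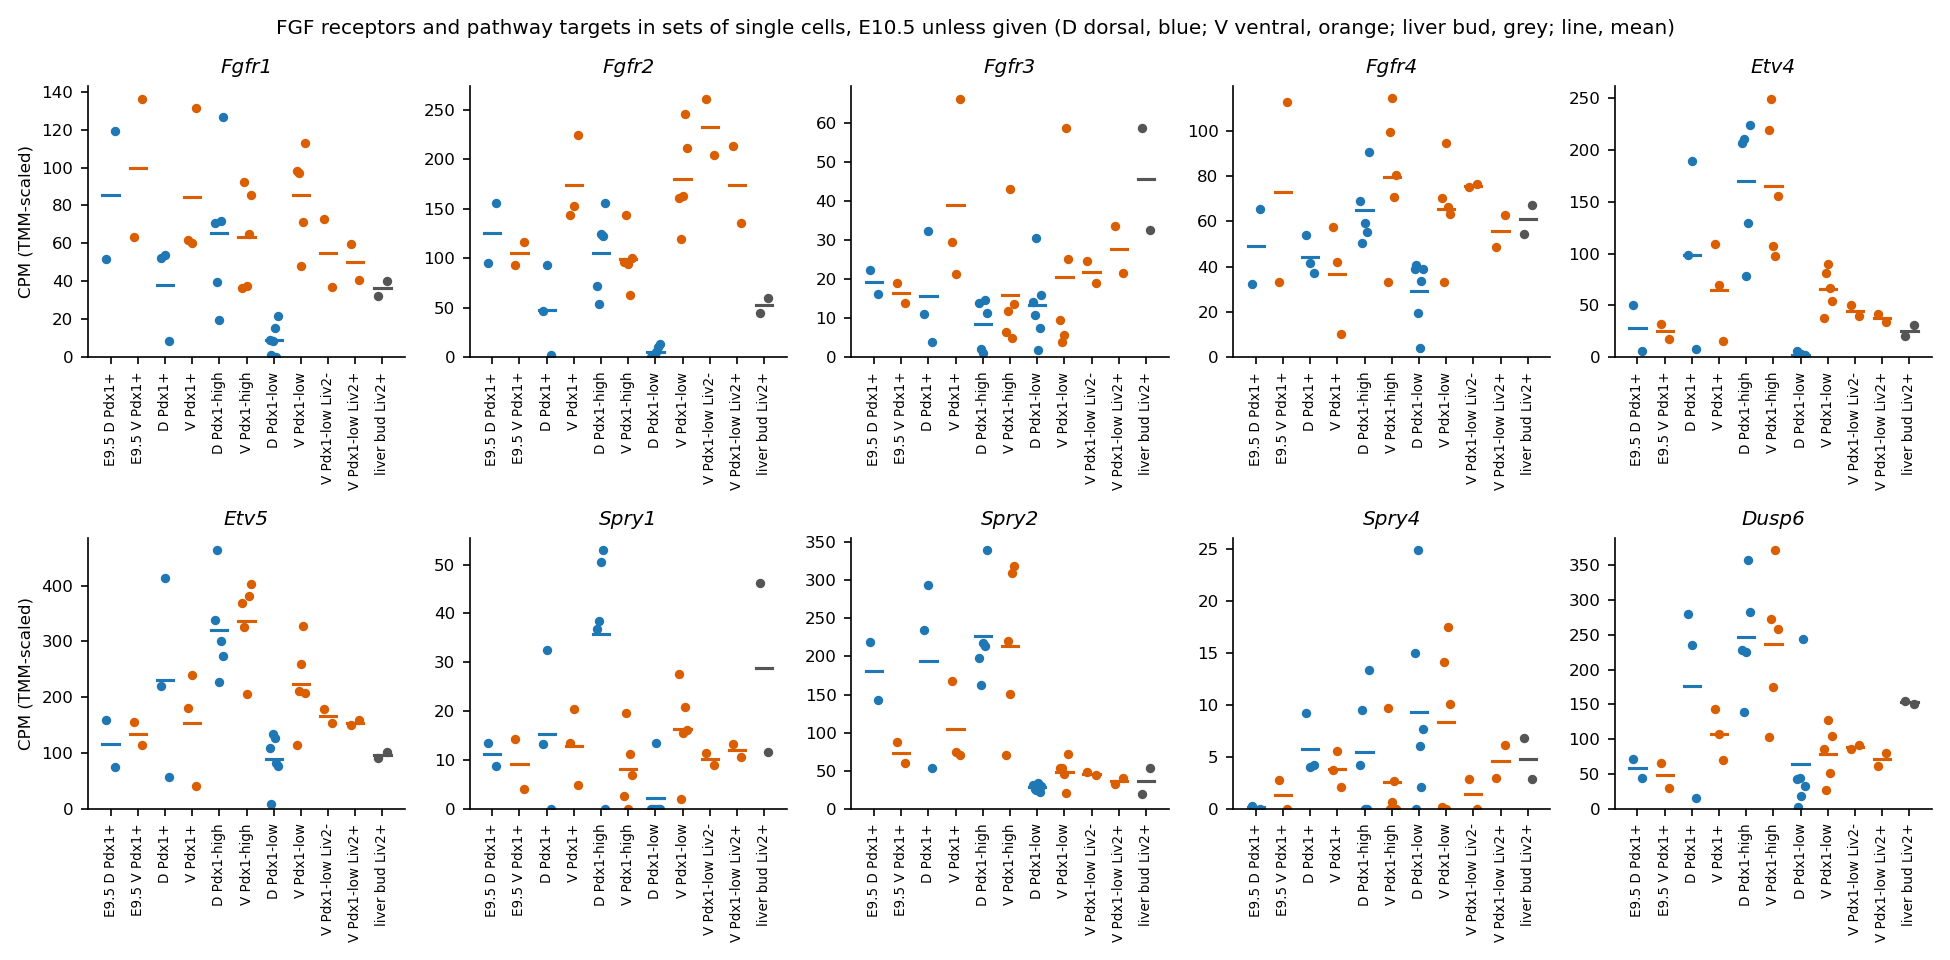
CPM (TMM-scaled, linear axes from 0) of the 10 genes in the 37 sets of single cells; points are sets, lines are means, blue is dorsal (D), orange ventral (V) and grey liver bud. Etv4 and Fgfr2 are at most 5.74 and 13.8 CPM in the dorsal Pdx1-low sets and low in 1 dorsal Pdx1+ set, and the highest Spry2 levels are 340 CPM (dorsal) and 319 CPM (ventral), both in Pdx1-high sets.

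In the ungated E10.5 Pdx1-GFP+ cells (3 sets a side) 0 of 10 members were called in edgeR or DESeq2, 1 at an unadjusted p under 0.05, against 0.47% of all genes in edgeR (0.0803% higher, 0.39% lower). The sign matched that of the bulk libraries, which are other samples, for 9 of 10 members, the exception being Fgfr4. The share of all genes with a matching sign was not counted. Dorsal samples of both data sets held more endocrine marker RNA than ventral ones, and its part was not tested. Fgfr2 stood at 2.67, 46.9 and 93.5 CPM in the dorsal and at 144, 153 and 225 CPM in the ventral sets (1.86, SE 0.88, adjusted p = 0.534). Spry2 stood at 53.6, 235 and 294 CPM in the dorsal and at 71.1, 74.4 and 168 CPM in the ventral sets (-0.89, SE 0.50, adjusted p = 0.621). The dorsal set with the lowest level of both genes, set 3, had a summed endocrine marker level of 41460 CPM, the highest of the 3 dorsal sets (lowest 219 CPM). With 3 sets a side the intervals are wide (Spry2 -1.91 to 0.14), and a difference of the bulk size was not detectable.

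**Figure D4:**
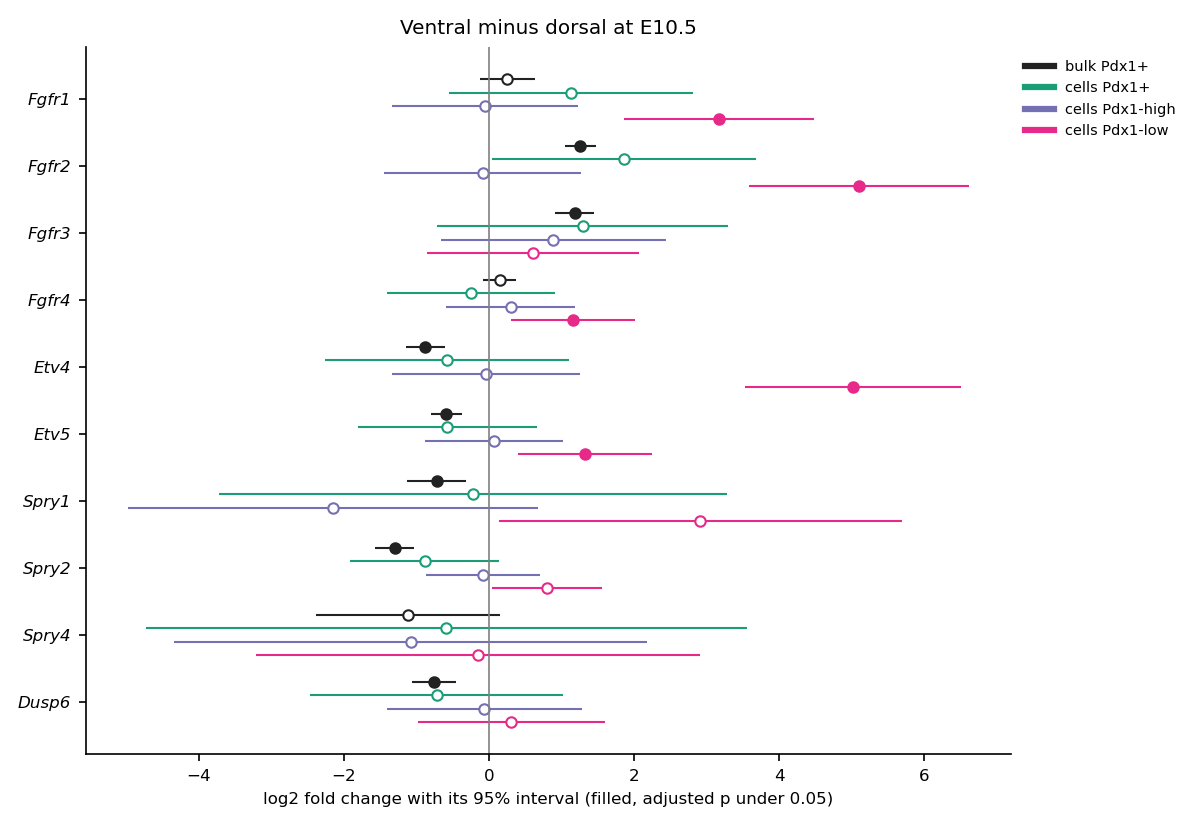
Ventral minus dorsal log2 fold change (x axis) of the 10 genes at E10.5 in bulk libraries and in 3 sorts of single cells, with 95% intervals; filled points have an adjusted p under 0.05. The bulk intervals are the narrowest, Pdx1-high cells lie near 0 for Etv4, Etv5, Spry2 and Dusp6, and Pdx1-low cells lie far to the right for Fgfr1, Fgfr2 and Etv4.

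Counted by cell, most E10.5 progenitors carried several receptors. A gene was counted in a cell at 10 CPM or more, and intervals are exact Clopper-Pearson 95% intervals, which cover counting error only. Fgfr2 was counted in 24 of 28 dorsal Pdx1-high cells (85.7%, 67.3 to 96.0%) and 32 of 39 ventral ones (82.1%, 66.5 to 92.5%), whereas the Pdx1-low gate gave 6 of 40 on the dorsal side (15%, 5.71 to 29.8%) and 37 of 39 on the ventral side (94.9%, 82.7 to 99.4%). The median was 3 receptors per cell in both Pdx1-high groups and 1 in dorsal Pdx1-low cells, of which 9 had none and 16 had 1. Where dorsal Pdx1-low cells carried a receptor, it was most often Fgfr4, counted in 21 of 40 cells (52.5%, 36.1 to 68.5%) and the highest receptor per length in 18. These cells come from 6 sets and are not independent replicates.
Among Pdx1-high cells, 27 of 28 dorsal and 31 of 39 ventral ones had at least 4 of the 6 targets, and 3 of 40 dorsal Pdx1-low cells did. The 2 related factors parted in those dorsal Pdx1-low cells, where Etv4 was counted in 3 of 40 (7.5%, 1.57 to 20.4%) and Etv5 in 26 of 40 (65.0%, 48.3 to 79.4%). Spry2 was counted in 31 of the 40, at a median of 31.7 CPM, against a median of 214 CPM in dorsal Pdx1-high cells. On the dorsal side the Pdx1-low gate gave Spry1 in 1 of 40 (2.50%, 0.06 to 13.2%), whereas the Pdx1-high gate gave it in 13 of 28 (46.4%, 27.5 to 66.1%). Spry4 was counted in at most 20% of cells in any E9.5 or E10.5 group, and in 0 of 31 dorsal E9.5 cells (0 to 11.2%).

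Within a group, cells high in one target tended to be high in another only for some pairs. Etv4 and Etv5 had a Spearman correlation across cells from 0.112 (dorsal Pdx1-low, 40 cells) to 0.781 (ventral Pdx1-low Liv2+, 54 cells), positive in all 11 groups. Fgfr1 and Fgfr2 ranged from -0.297 to 0.374. In dorsal Pdx1+ cells, a gate that holds progenitor and endocrine cells, the 15 pairs of targets had a median of 0.491. It was 0.0929 in dorsal Pdx1-high and 0.014 in dorsal Pdx1-low cells. In the other groups the median ran from 0.0948 (ventral Pdx1-low) to 0.358 (E9.5 dorsal Pdx1+). The part of the mixed gate was not tested. Cells of a group come from several numbered sets, whose meaning the labels do not give, and differ in depth. These are therefore descriptions of sparse counts.

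**Figure D5:**
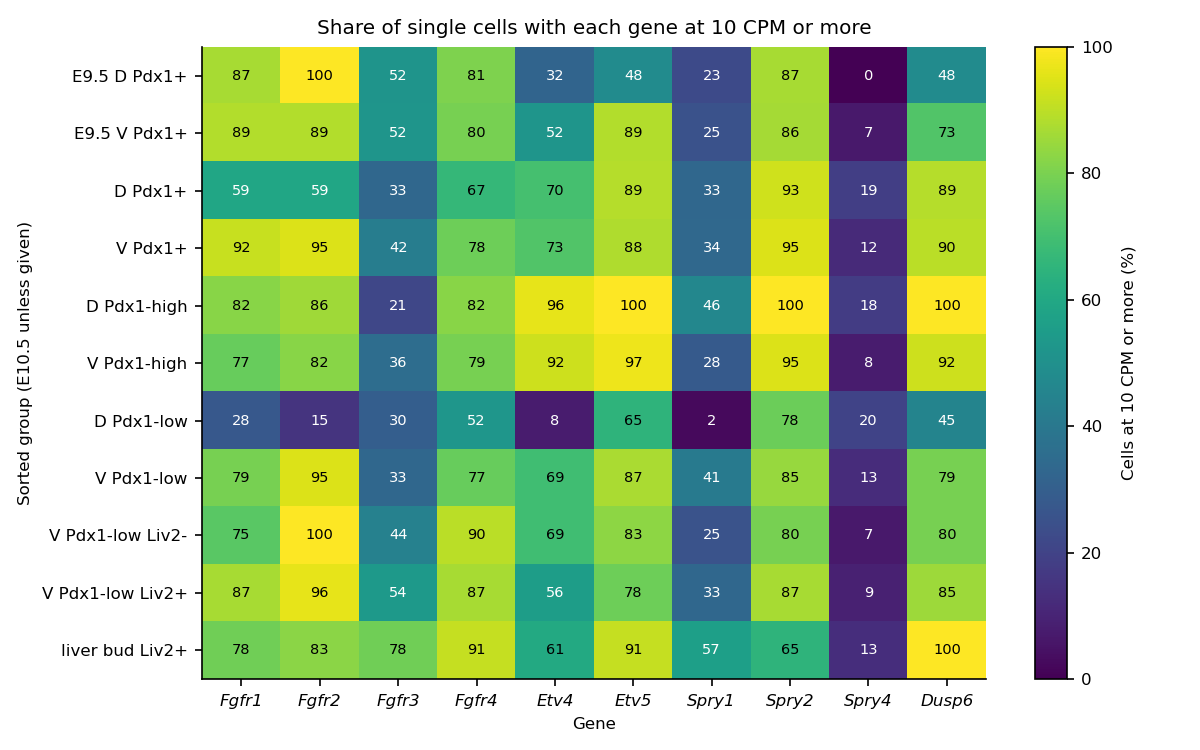
Share of single cells (%, colour and number) with each gene at 10 CPM or more, by sorted group (E10.5 unless given) and gene. The dorsal Pdx1-low row is low for Fgfr1, Fgfr2, Etv4 and Spry1, the E9.5 dorsal row is low for Etv4, and Fgfr3 reaches its highest share in the liver bud (78%).

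At E9.5, edgeR called 0 of 10 members between ventral and dorsal Pdx1-GFP+ cells (0 in DESeq2, 1 at an unadjusted p under 0.05), and 0% of all genes. Spry2 was the one, at 219 and 142 CPM in the 2 dorsal and 87.7 and 59.4 CPM in the 2 ventral sets (-1.30, SE 0.62, adjusted p = 1), so the sets did not overlap and were ordered as in the E10.5 bulk libraries. Per cell, Etv5 was counted in 15 of 31 dorsal (48.4%, 30.2 to 66.9%) and 39 of 44 ventral cells (88.6%, 75.4 to 96.2%), with set values of 41.7 to 71.4% and 68.8 to 100.0%. Etv4 was counted in 10 of 31 dorsal cells (32.3%, 16.7 to 51.4%) at E9.5. Its set level was 50.1 and 5.78 CPM there, so the sets disagreed more than the sides.
From E9.5 to E10.5, 0 of 10 members were called on either side in edgeR or DESeq2, with 0 at an unadjusted p under 0.05 on both (0.275% of all genes dorsal and 0% ventral in edgeR). The largest differences among genes above 10 CPM were those of Etv4, 1.84 dorsal (27.9 to 98.6 CPM, SE 0.98, adjusted p = 0.602) and 1.40 ventral (24.9 to 65.0 CPM, SE 0.96, adjusted p = 1). Of the ventral E9.5 cells, 25 carry a growth protocol of human stem cells in the labels and were kept as mouse cells. With 2 or 3 sets a group, changes of this size were not detectable.

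Among the ventral Pdx1-low Liv2-, ventral Pdx1-low Liv2+ and liver bud groups, Fgfr2 values were lowest in the liver bud, without a call. Ventral Pdx1-low Liv2- cells had Fgfr2 at 261 and 204 CPM, Liv2+ cells at 214 and 136 CPM and liver bud cells at 44.4 and 60.4 CPM. Fgfr2 was 57.4% ± 0.576, 53.6% ± 6.64 and 24.5% ± 4.23 of summed receptor RPKM in these groups (n = 2 sets each), and Fgfr4 was 38.0% ± 4.05 in the liver bud. The 10 hepatoblast markers summed to 2536 to 2968 CPM in Liv2-, 8347 to 9914 CPM in Liv2+ and 33879 to 46227 CPM in liver bud sets. The 5 extrahepatic biliary markers summed to 1320 to 1428, 1083 to 1263 and 130 to 233 CPM in the same order. They summed to 1070 to 1620 CPM in dorsal Pdx1-high sets, so they did not set the Liv2- cells apart. Liv2+ against Liv2- cells gave 0 of 10 members (0 at an unadjusted p under 0.05, 0 in DESeq2, 0% of all genes in edgeR). Liver bud against Liv2+ ventral cells also gave 0 of 10 (0 and 0, with 0.562% of all genes). There Fgfr2 was -1.74 (SE 1.07, adjusted p = 0.776).
Against ventral Pdx1-high cells, the liver bud was lower in Spry2, at 18.96 and 53.4 CPM against 71.1 to 319 CPM (-2.56, SE 0.59, adjusted p = 0.00713), the 1 member called (5.52% of all genes, 2.71% lower). Without liver bud set 1 the Spry2 difference was -1.94 and not called (adjusted p = 0.205). Etv4 (20.2 and 31.0 against 97.5 to 250 CPM) and Etv5 (91.0 and 102 against 205 to 402 CPM) did not overlap but were not called in edgeR, with adjusted p of 0.107 and 0.125. DESeq2 called both. Dusp6 stood at 155 and 150 CPM in the liver bud sets and was counted in 23 of 23 cells, and it differed from ventral Pdx1-high cells by -0.63 (SE 0.89, adjusted p = 0.796). Fgfr3 was counted in 18 of 23 liver bud cells (78.3%, 56.3 to 92.5%) and, in the ventral Pdx1-high gate, in 14 of 39 (35.9%, 21.2 to 52.8%), with a set difference of 1.51 (SE 0.93, adjusted p = 0.388).

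Of 12 co-receptors and modifiers at E10.5 in bulk, 3 were higher and 2 lower in ventral libraries, where 25.3% of all genes were called. Flrt3, a membrane protein that binds FGF receptors, was at 12.6 and 10.0 CPM in dorsal and 141 and 147 CPM in ventral libraries (3.66), and Klb, the co-receptor used by Fgfr4, rose from 17.2 to 47.2 CPM (1.45). Of 18 adaptors and kinases between receptor and ERK, 1 was called, Sos2 at -0.46. Of 15 tested feedback and ERK response genes outside the 10, 1 was higher and 4 were lower in ventral libraries, among them Etv1 (66.6 to 11.0 CPM, -2.58) and Dusp4 (98.2 to 40.6 CPM, -1.28). Of 10 tested FGF ligands 2 were lower, Fgf12 and Fgf14, which act inside cells rather than on receptors. Of 8 other receptor tyrosine kinases, which can feed the same targets, Erbb2 (1.06) and Erbb4 (3.93) were higher and Erbb3 (-0.79) and Ret (-2.86) lower. By share, 41.7% of the co-receptors, 5.56% of the adaptors and kinases, 33.3% of the other response genes, 20% of the ligands and 50% of the other receptor kinases were called. The ligands and the other response genes thus lay near the background. The median log2 fold change was -0.82 for the 6 targets and 0.08 for the 15 other response genes, against -0.03 for all genes.
In Ngn3-high against Ngn3-low cells 5 of the 15 other response genes were higher and 8 lower, a share of 86.7% where 70.8% of all genes were called. Etv1 rose from 5.79 to 118 CPM (4.34) and Spred3, a relative of Sprouty that blocks RAF activation, from 7.84 to 105 CPM (3.74). Myc fell from 60.1 to 3.43 CPM (-4.10) and Ccnd1, a cyclin, from 362 to 37.7 CPM (-3.26). In the co-receptor list 4 rose and 8 fell, all 12, with Flrt1 at 4.49 and Flrt2 at -3.76. In dorsal Pdx1-high against Pdx1-low cells Etv1 was lower in the progenitors (2.65 against 95.2 CPM, -5.16), whereas Etv4 and Etv5 were higher there.

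The genes whose group means followed a member most closely were ranked among 9125 genes by the lower of their Pearson correlations over the 8 bulk groups and over the 11 groups of sets. For Etv4 the first was Etv5 (0.949 in bulk, 0.910 in sets), and Etv4 was first for Etv5. Hmga2 was first for Fgfr1 (0.989 and 0.980), Lima1 for Fgfr2 (0.989 and 0.976), Cpne3 for Fgfr3 (0.836 and 0.847) and Trmt44 for Fgfr4 (0.930 and 0.957). Tmem110 was first for Spry1 (0.951 and 0.943), Serf1 for Spry2 (0.855 and 0.915) and Nr2f6 for Dusp6 (0.928 and 0.874). The second genes had lower values of 0.818 (Cpsf2 for Dusp6) to 0.961 (Casp8 for Fgfr2). Spry4 was too low to be ranked. Some groups share a stage or a sort, and these are descriptions over few points.

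In GRCm38 (GENCODE vM21, plus or minus strand in words) the members lie apart. Fgfr1 is on chromosome 8 (25513654 to 25575718, plus), Fgfr2 on chromosome 7 (130162451 to 133123350, minus), Fgfr3 on chromosome 5 (33721674 to 33737068, plus) and Fgfr4 on chromosome 13 (55152640 to 55168759, plus). Etv4 is on chromosome 11 (101769742 to 101785371, minus), Etv5 on chromosome 16 (22381309 to 22439719, minus), Spry1 on chromosome 3 (37639947 to 37644598, plus), Spry2 on chromosome 14 (105891947 to 105896819, minus) and Dusp6 on chromosome 10 (99263231 to 99267489, plus). All are protein-coding genes.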

How the data were processed

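Gene-level read counts were deposited by the authors as integers for 16 bulk libraries and 447 cells, with RPKM tables and gene lengths. Per the submitters' processing notes, Bowtie2, TopHat2 2.1.0 and HTSeq 0.6.0 were used on GRCm38, and the annotation release is not given in the sources used here. Per the file headers, the deposited RPKM of bulk groups pool libraries, and 0 of 327328 differed by more than 0.0051 from RPKM recomputed from the counts. Tests used counts. Per the labels' protocols the bulk library kit is directional. Whether counting used strand is not given in the sources used here.

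Counts were filtered (filterByExpr), scaled by TMM and fitted with edgeR 4.0.16 (R 4.3.3), in 1 model for 16 bulk libraries and 1 for 37 set sums (sets of 3 or more cells). SE is the size of the log2 fold change over the square root of F. Doublets were not called. Genes named are the 10 members, list genes that passed (at most 4 a list and comparison) and the 2 genes most like each member. The members and lists were chosen with earlier results of these data known. Other settings tried were a 1.5-fold test, RLE scaling, DESeq2 1.42.0, no filter, blocks, other sets of cells, thinning to 100000 reads and each library or set left out. Methods were tested on simulated data. Spry4 promoter sequence is not used here.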

Additional observations from a re-analysis of the deposited data

Results flagged for a closer look

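Among the 40 groups of sets and genes that could be tested for a single value apart from the others, of which chance gives about 1 in 20, 4 stood out. Dusp6 was at 245 CPM in dorsal Pdx1-low set 5, against at most 44.0 CPM in the other 5 sets. Spry1 was at 13.5 CPM in dorsal Pdx1-low set 4 and at most 0.0421 CPM elsewhere in that group. Fgfr3 was at 43.1 CPM in ventral Pdx1-high set 4 (next 13.6 CPM), and Spry4 at 9.70 CPM in ventral Pdx1-high set 1 (next 2.71 CPM).

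The same contrast differed between groups, by a test of the difference, in 7 cases. The ventral minus dorsal difference changed from E10.5 Pdx1+ to E14.5 Ngn3-low bulk libraries for Fgfr2 (-1.07), Fgfr3 (-1.23), Etv4 (0.65) and Spry2 (0.70). The Pdx1-high minus Pdx1-low difference changed from dorsal to ventral cells for Fgfr1 (-3.23), Fgfr2 (-5.19) and Etv4 (-5.05).

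The 4 E15.5 liver cells carrying Pdx1-Cre and tdTomato enter no comparison. Their mean levels were 44.9 CPM for Fgfr2, 21.6 CPM for Fgfr3, 7.04 CPM for Fgfr4, 48.0 CPM for Dusp6 and 4.96 CPM for Spry1. The Dusp6 mean rests on 1 cell at 163 CPM. Fgfr1, Etv4 and Etv5 had 0 reads in the 4 cells, and Alb, a hepatocyte gene, was at 11175 to 14581 CPM.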

How the results depend on the processing

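Of 55 calls on members, none changed sign in the alternatives run. DESeq2 kept 54, RLE scaling 52, no filter 53, the replicate block 53 and the 1.5-fold test 34, and 11 were lost in 1 or more fits with a library or set left out. With the 1.5-fold test, members called fell from 7 to 4 (E10.5 bulk sides), 9 to 4 (Ins1+ minus Ngn3-high), 8 to 5 (Ngn3-low minus E10.5), 4 to 2 (change of side difference), 5 to 3 (Pdx1-low sides) and 8 to 5 (dorsal gate), the last also without cells carrying other markers (5). Without a filter they rose from 0 to 1 in the sides of Ngn3-high (Dusp6) and Ngn3-low cells (Spry2), from 0 to 2 in the bulk gate difference and from 4 to 7 in the change of side difference. DESeq2 gave 1 in the bulk gate difference. For liver bud minus Pdx1-high cells, DESeq2 gave 3, sets of 5 or more cells 2 and thinning 2, against 1. The replicate block gave 7 in the change of side difference, adding Etv5, Spry1 and Dusp6 to the 4. A replicate block within each embryonic day, chosen after seeing the data, gave 7 there, 1 in the Ngn3-high sides (Etv5) and 2 in the bulk gate difference. It changed no other count by over 1.5 times. Libraries of the same number and stage correlated across sides at 0.28 (E10.5), 0.511 (Ngn3-low), 0.379 (Ngn3-high) and 0.776 (E17.5). With 2 libraries a group both pairs give the same value, and the labels do not say that a number marks shared embryos, so the numbers were not taken as pairs. Leaving out single libraries or sets gave 2 to 4 members (change of side difference), 3 to 5 (Pdx1-low sides), 5 to 8 (dorsal gate) and 0 to 1 (liver bud minus Pdx1-high). Without ventral Ngn3-low library 1, Spry4 turned to -0.19 in both Ngn3-low minus E10.5 (range with others left out up to 0.74) and the change of side difference (up to 1.78), and neither was called with all libraries. Over all genes, calls between the sides moved by over 1.5 times in several fits. They went from 4471 to 1903 at E10.5 with the 1.5-fold test, from 86 to 9 (1.5-fold), 138 (DESeq2), 295 (no filter) and 350 (block within day) in Ngn3-high cells, from 3 to 16, 137 and 45 in Ngn3-low cells (DESeq2, no filter, block within day), and from 5 to 12, 94 and 45 in Ins1+ cells. In sets DESeq2 called more, with 326 against 82 (Pdx1+ sides), 231 against 1 (Pdx1-high sides), 570 against 166 (ventral gate) and 2003 against 963 (liver bud minus Pdx1-high). Receptor shares taken from counts without length moved by at most 8.22 percentage points, and the leading receptor changed from Fgfr4 to Fgfr3 in both Ngn3-high groups and from Fgfr4 to Fgfr2 in ventral Pdx1-high sets (39.3% against 30.2%).

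The 2 libraries or 2 to 6 sets a group limit the smallest difference that could be called. In 136 of the member comparisons no setting gave a call, and 126 of their 2013 alternative values had the opposite sign. Counting a cell from 1 read moved 36 of 110 shares beyond their interval, and thinning moved 1.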
